A study of Mus musculus with 18 samples.

Results

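The phagocyte NADPH oxidase is a membrane enzyme that moves electrons from NADPH inside the cell to oxygen outside it or in a phagosome, and so makes superoxide. Its catalytic subunit gp91phox (Cybb, also called NOX2) sits in the membrane with p22phox (Cyba), and the enzyme is switched on when cytosolic subunits, among them p47phox (Ncf1) and p40phox (Ncf4), and a Rac GTPase, Rac2 in blood cells, join this pair. In the liver the complex is best known from Kupffer cells, recruited macrophages and neutrophils, while the homolog Nox4, which also needs p22phox but not the cytosolic subunits, is found in hepatocytes and stellate cells and is active without such a switch. Described here are 6 genes, Cyba, Cybb, Ncf1, Ncf4, Rac2 and Nox4, chosen by their symbols out of the 55487 genes of a liver RNA-seq count table, and all 6 passed the filter on low counts in every comparison.

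The livers came from 18 male C57BL/6J mice, 6 in each of 3 groups, with 1 library per mouse. All mice were bought at 7 weeks of age and were given an adeno-associated virus, AAV8, 1 week before their diet began. The virus carried its gene under the TBG promoter, which is active in hepatocytes, so that the vector was not aimed at the leukocytes in which most of these genes are known to be expressed. CON-GFP mice received GFP and ate a purified control diet for 16 weeks, FPC-GFP mice received GFP and ate the FPC diet (rich in fructose, palmitate and cholesterol, with fructose and glucose in the water) for 16 weeks, and FPC-LIPA mice received human LIPA, which encodes lysosomal acid lipase, and ate the FPC diet for 16 weeks. Livers were taken after a fast of 4 h. A group with LIPA on the control diet was not analysed here.

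Each CON-GFP library held 17741598 to 33588153 counts, each FPC-GFP library 17813507 to 31134367 and each FPC-LIPA library 16632146 to 37739301. The lowest raw count of any of the 6 genes in any library was 11. Mouse Lipa, which is not the transgene and so does not check the labels, had a median CPM (counts scaled by TMM to a common total) of 243 in CON-GFP, 349 in FPC-GFP and 283 in FPC-LIPA. The summed level of 5 hepatocyte genes (Alb, Apoa1, Ttr, Cyp2e1 and Apoh) was 70192 to 101473 CPM in CON-GFP, 60044 to 87514 in FPC-GFP and 48474 to 75306 in FPC-LIPA. The libraries FPC-LIPA 36, 37 and 39 stood apart: 86 genes of cytosolic ribosomal proteins took 6.58 to 8.29% of their counts, against 2.19 to 2.99% in FPC-LIPA 31, 33 and 34, 1.46 to 1.82% in FPC-GFP and 1.77 to 2.58% in CON-GFP. Genes of the mitochondrial chromosome took 1.87 to 3.31% of their counts, against 4.91 to 5.92% in FPC-LIPA 31, 33 and 34 and 3.41 to 5.25% in FPC-GFP. This share was 11.7% in CON-GFP 2 and 4.95 to 8.55% in the other controls. Sample sheet numbers ran from 55 to 68 except in the libraries CON-GFP 1, CON-GFP 2, FPC-GFP 20 and FPC-LIPA 37. The number of FPC-LIPA 37 was by far the most distant from this range, and what this numbering stands for is not given. The title of FPC-LIPA 37 alone adds a letter, b, to the mouse number. Whether this marks a repeated sample or library is not stated. FPC-LIPA 37 also had the fewest counts of all libraries (16632146), and the part of these differences in its values was not tested. In whole liver, fewer cells of a type and less RNA per cell cannot be told apart, and this holds for every value below.

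The 5 genes of the phagocyte complex and Nox4 lie on 6 places of the mouse genome (GRCm38, GENCODE M21). Cyba (chromosome 8, 122424776 to 122432930, minus strand) has the shortest exons, 1039 bases when joined, and Nox4 (chromosome 7, 87246096 to 87398710, plus strand) the longest, 8471 bases. Cybb lies on chromosome X (9435252 to 9487771, minus strand), Ncf1 on chromosome 5 (134220053 to 134229625, minus strand), and Ncf4 and Rac2 on chromosome 15 (78244801 to 78262580, plus strand, and 78559167 to 78572783, minus strand). The 250 bases before the annotated start (RefSeq, GRCm38.p6) are shown for the 4 members in the promoter table, since they set the widely expressed partner p22phox beside the leukocyte genes and Nox4. Capitals mark matches to 5 motifs searched on both strands: GAGGAA, a core that the myeloid factor PU.1 binds, the CCAAT box, the box GGGCGG of factors such as SP1 (GC box), the short motif GATAA known from erythroid and myeloid factors, and an element of interferon regulatory factors that holds GAAA on both sides of any 2 bases.
Cyba: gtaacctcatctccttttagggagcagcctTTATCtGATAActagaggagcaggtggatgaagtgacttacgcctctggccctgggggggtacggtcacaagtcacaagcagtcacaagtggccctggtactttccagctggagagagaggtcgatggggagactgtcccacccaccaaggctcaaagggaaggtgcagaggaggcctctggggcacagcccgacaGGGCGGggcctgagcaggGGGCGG
Cybb: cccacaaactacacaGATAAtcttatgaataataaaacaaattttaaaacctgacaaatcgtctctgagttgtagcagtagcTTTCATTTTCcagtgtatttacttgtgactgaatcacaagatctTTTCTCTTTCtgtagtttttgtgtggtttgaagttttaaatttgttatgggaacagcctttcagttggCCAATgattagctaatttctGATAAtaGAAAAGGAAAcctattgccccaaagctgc
Ncf1: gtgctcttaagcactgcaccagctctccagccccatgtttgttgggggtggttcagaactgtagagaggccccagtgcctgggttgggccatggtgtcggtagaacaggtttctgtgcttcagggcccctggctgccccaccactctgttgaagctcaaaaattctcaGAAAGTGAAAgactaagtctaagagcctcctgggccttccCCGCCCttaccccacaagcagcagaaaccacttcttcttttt
Nox4: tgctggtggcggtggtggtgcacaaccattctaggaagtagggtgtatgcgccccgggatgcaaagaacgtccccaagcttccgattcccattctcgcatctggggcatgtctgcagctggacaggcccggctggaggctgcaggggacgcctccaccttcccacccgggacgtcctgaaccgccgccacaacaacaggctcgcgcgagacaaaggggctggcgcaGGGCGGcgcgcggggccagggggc
These windows are chr8:122432941-122433190 (minus strand), chrX:9469325-9469574 (minus strand), chr5:134229626-134229875 (minus strand) and chr7:87246399-87246648 (plus strand). Ncf4 and Rac2 are not among them. The windows precede the RefSeq start, and those of Cybb and Nox4 lie within the GENCODE spans given above, downstream of where these spans begin.

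The windows differed in base composition and in the motifs they held. The Nox4 window had 20 CpG dinucleotides and a GC content of 67.2%, the Cyba window 6 and 60%, the Ncf1 window 2 and 54.4%, and the Cybb window 1 and 34%. The Cybb window held 3 matches to the interferon regulatory factor element, starting 168, 124 and 29 bases before the start, a CCAAT box at 56 bases and GATAA at 235 and 36 bases. The Ncf1 window held 1 match to this element, at 82 bases, and a GC box at 42 bases. Of 32851 mouse promoters of this length, 2.98% held it at least once. The Cyba window held GC boxes at 24 and 6 bases and GATAA at 220 and 214 bases, and the Nox4 window a GC box at 24 bases. Among all promoters 32.7% held a GC box, 33.8% a CCAAT box, 22.6% GATAA and 23.3% GAGGAA, which was in none of the 4 windows. A match describes the letters of a window and is not a binding site.

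Per length, Cyba was the most abundant of the 6 in every group. Levels per length are given as RPKM, TMM-scaled CPM divided by the kilobases of joined exons. In CON-GFP the median levels fell in the order Cyba (7.44 RPKM), Nox4 (5.12), Rac2 (1.40), Cybb (1.06), Ncf4 (0.909) and Ncf1 (0.830), and of these neighbours only Nox4 and Rac2 did not overlap between libraries. In FPC-GFP the order was Cyba (12.8 RPKM), Rac2 (3.73), Nox4 (3.28), Cybb (2.79), Ncf1 (1.59) and Ncf4 (1.30), with no overlap between Cyba and Rac2 or between Cybb and Ncf1. In FPC-LIPA it was Cyba (49.9 RPKM), Cybb (5.01), Nox4 (3.38), Rac2 (2.37), Ncf1 (2.30) and Ncf4 (1.95), and only Cyba and Cybb did not overlap. Nox4 was thus the second of the 6 in control livers and in the range of the leukocyte genes in both FPC groups.

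**Figure D1:**
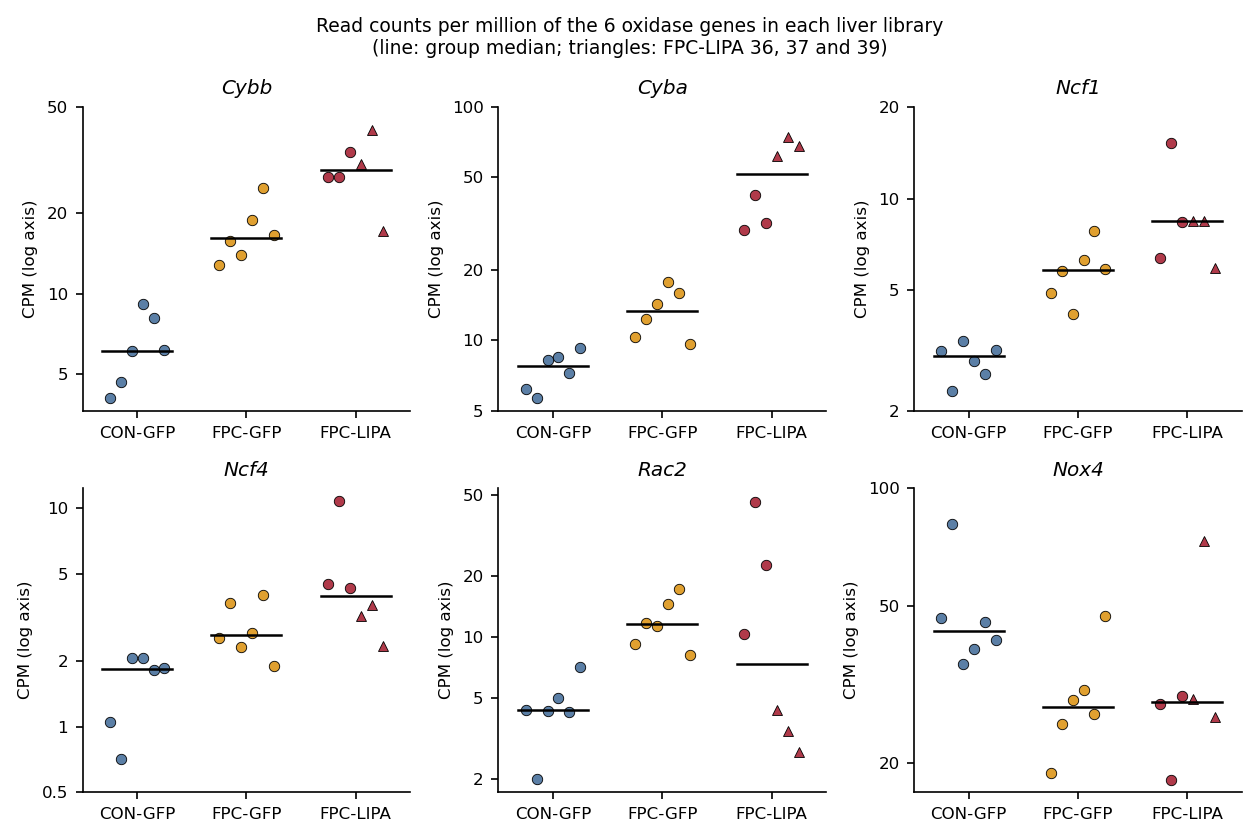
Level of each of the 6 genes in each of the 18 libraries, in CPM on a log axis, with the libraries in 3 groups; points are libraries, triangles are FPC-LIPA 36, 37 and 39, and the line of each group is its median. Cyba lies at 5.64 to 9.28 CPM in control livers and at 29.7 to 74.1 CPM with LIPA, and Nox4 lies lower in most FPC-GFP livers than in CON-GFP livers.

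The first comparison asked what the FPC diet did in mice with the GFP vector. The 5 genes of the phagocyte complex were higher in FPC-GFP than in CON-GFP livers, by 1.78 to 2.69-fold, and Nox4 was lower. Cybb and Rac2 were differentially expressed (DE, meaning at least a 2-fold change and an adjusted p under 0.05 in edgeR's quasi-likelihood test over 14307 genes), 2 of the 6 members, where 4.76% of all genes tested were DE and higher. By adjusted p alone 5 members were higher and 1 lower, against 12.9% and 10.9% of all genes. The libraries of the 2 groups did not overlap for 4 members, all higher, against 5.61% of all genes. The median log2 fold change was 0.91 over the 6 members and 0.01 over all genes tested.

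Of the membrane pair, Cybb changed more. Cybb had 4.07 CPM in the lowest, 6.13 in the median and 9.12 in the highest CON-GFP liver, and 12.8, 16.2 and 24.9 CPM in FPC-GFP. All 6 FPC-GFP livers were above all CON-GFP livers, and the log2 fold change was 1.43 (SE 0.20, adjusted p = 0.000436, edgeR). Cyba, the subunit that Cybb needs to be stable in the membrane, had 5.64, 7.73 and 9.28 CPM in CON-GFP livers, and 9.61, 13.3 and 17.7 CPM in FPC-GFP livers. Here too the groups did not overlap, although FPC-GFP 20 came close to the highest control, and the log2 fold change was 0.83 (SE 0.17, adjusted p = 0.00305, edgeR), which is below the 2-fold limit.

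The organizer Ncf1, which carries the cytosolic subunits to the membrane, had 2.33, 3.04 and 3.41 CPM in CON-GFP livers, and 4.19, 5.83 and 7.83 CPM in FPC-GFP livers. It rose in every FPC-GFP liver above the control range, by 0.98 on the log2 scale (SE 0.17, adjusted p = 0.00121, edgeR), a 1.97-fold change that fell just short of the limit for DE. An exon of Ncf1 overlaps Gtf2ird2 on the other strand, and since the use of strand in counting is not stated, reads of these genes cannot be told apart. Gtf2ird2 itself had a log2 fold change of 0.22 (adjusted p = 0.355). Ncf4, whose product binds the lipid of phagosome membranes, had the lowest median CPM of the members in both groups, with no correction for length. It had 0.713, 1.84 and 2.07 CPM in CON-GFP livers, and 1.90, 2.62 and 4.02 CPM in FPC-GFP livers. Its groups overlapped, and its log2 fold change was 0.83 (SE 0.26, adjusted p = 0.0320, edgeR). The call for Ncf4 was lost without CON-GFP 1 (0.73, adjusted p = 0.0671), CON-GFP 2 (0.70, 0.0519), FPC-GFP 12 (0.75, 0.0709) or FPC-GFP 19 (0.71, 0.0809). It was also lost with all 18 libraries in one fit (0.84, adjusted p = 0.124), in sheet numbers 55 to 68 (0.65, 0.0649) and with each library's trend on GC content removed (0.67, 0.0506).

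Rac2, the GTPase of blood cells that works with the oxidase, had 2.01, 4.35 and 7.09 CPM in CON-GFP livers, and 8.11, 11.6 and 17.3 CPM in FPC-GFP livers. The groups did not overlap, and the log2 fold change was 1.41 (SE 0.24, adjusted p = 0.00118, edgeR). When all 18 libraries were fitted together the fold change was 1.42 and the call was lost (adjusted p = 0.0932). In that fit the spread of the FPC-LIPA libraries, from 2.72 to 46.2 CPM, entered the estimate.

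Nox4 went the other way. It had 35.6, 43.4 and 81.1 CPM in CON-GFP livers, and 18.9, 27.8 and 47.2 CPM in FPC-GFP livers, and fell by 0.70 on the log2 scale (SE 0.23, adjusted p = 0.0383, edgeR). CON-GFP 2, at 81.1 CPM, was far above the other controls and had the highest mitochondrial share of all libraries (11.7%), whose part in this value was not tested, and FPC-GFP 20, at 47.2 CPM, was inside the control range. The call was lost without CON-GFP 1 or 2 and without FPC-GFP 11, 12, 13, 16 or 19, with adjusted p from 0.0575 to 0.0894 and a log2 fold change of -0.48 without CON-GFP 2. With the libraries of sheet numbers 55 to 68 alone, which leaves out CON-GFP 1 and 2 and FPC-GFP 20, it was -0.63 (adjusted p = 0.0126), and with library size alone in place of TMM it was -0.48 (adjusted p = 0.108). The call was lost too with all 18 libraries in one fit (-0.69, adjusted p = 0.175) and with the GC trend removed (-0.39, 0.0650).

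**Figure D2:**
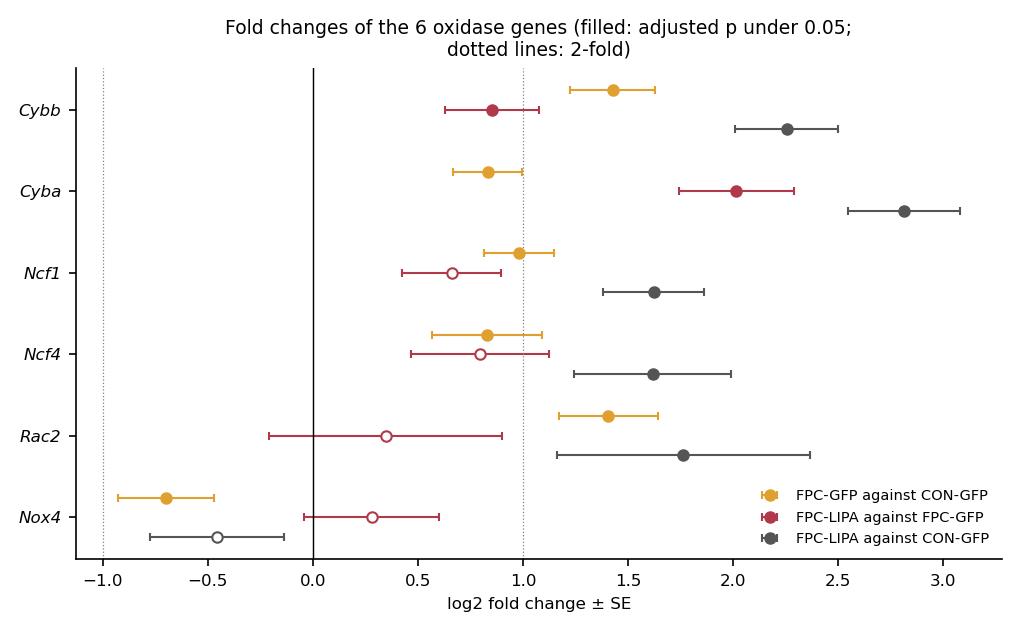
Log2 fold change of each of the 6 genes in each of the 3 comparisons, with bars of 1 SE from edgeR; filled points have an adjusted p under 0.05 and dotted lines mark 2-fold changes. The 5 genes of the phagocyte complex lie above 0 in all 3 comparisons, with Cyba at 2.02 and 2.81 in the FPC-LIPA comparisons, and Nox4 lies below 0 in FPC-GFP against CON-GFP.

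The second comparison asked what LIPA did on the FPC diet, and its 6 FPC-GFP libraries are those of the first. In FPC-LIPA livers Cyba was 4.04-fold and Cybb 1.81-fold above FPC-GFP livers, while the other 4 members did not pass the test. Cyba was the 1 DE member, where 10.3% of the 14620 genes tested were DE and higher. By adjusted p alone 2 members were higher and none lower, against 14.4% higher and 6.87% lower of all genes. The groups did not overlap for 1 member, against 3.36% of all genes. The median log2 fold change was 0.73 over the members and 0.04 over all genes tested.

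Cyba had 29.7, 51.9 and 74.1 CPM in the lowest, median and highest FPC-LIPA liver, and each of these livers was above the highest FPC-GFP liver (17.7 CPM). Its log2 fold change was 2.02 (SE 0.27, adjusted p = 0.00790, edgeR). Within FPC-LIPA the level moved with the ribosomal protein share: livers 31, 33 and 34 had 29.7, 41.9 and 31.8 CPM, and livers 36, 37 and 39, with the high share, had 61.8, 74.1 and 67.7 CPM. Without the latter 3 libraries the log2 fold change was 1.38 and Cyba remained DE (adjusted p = 0.0111). Cyba is the shortest of the 6 genes, and with each library's trend on gene length removed its log2 fold change was 1.47 (adjusted p = 0.00977). It was 2.57 with the GC trend removed (adjusted p = 0.00504) and 2.01 with both removed (0.00472). The part of the ribosomal protein share in this result was not tested beyond these values.

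Cybb had 17.2, 29.1 and 41.1 CPM in FPC-LIPA, and all FPC-LIPA livers but liver 39 were above the highest FPC-GFP liver (24.9 CPM). Its log2 fold change was 0.85 (SE 0.22, adjusted p = 0.0218, edgeR). Livers 31, 33 and 34 had 27.4, 27.3 and 33.9 CPM and livers 36, 37 and 39 had 30.7, 41.1 and 17.2 CPM, so that Cybb did not divide them as Cyba did. The call was lost without FPC-GFP 13 (0.79, adjusted p = 0.0502), without FPC-LIPA 36, 37 and 39 (0.80, 0.0651), in sheet numbers 55 to 68 (0.70, 0.0852), with library size alone (0.68, 0.0762) and with each library's trend on GC content removed (0.50, 0.0826).

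Ncf1 and Ncf4 were highest in the same liver. Ncf1 had 5.92, 8.43 and 15.2 CPM in FPC-LIPA, a log2 fold change of 0.66 that did not pass (SE 0.24, adjusted p = 0.0571, edgeR). FPC-LIPA 33 had the 15.2 CPM and the other livers were at 5.92 to 8.47 CPM, and without FPC-LIPA 33 the log2 fold change was 0.44 (adjusted p = 0.0949). Ncf1 passed with the DESeq2 Wald test (adjusted p = 0.0297), with a filter of at least 1 CPM in 6 libraries (0.0488), with all 18 libraries in one fit (0.0245), with the length trend (0.0497) or the GC trend (0.0196) removed, and without FPC-LIPA 31 (0.74, 0.0434). Gtf2ird2, which overlaps it, had a log2 fold change of -0.66 (adjusted p = 0.0302). Ncf4 had 2.33, 3.94 and 10.8 CPM, the last in FPC-LIPA 33, while the other 5 livers had at most 4.50 CPM. Its log2 fold change of 0.80 did not pass (SE 0.33, adjusted p = 0.0875, edgeR), was 0.38 without FPC-LIPA 33 (adjusted p = 0.228) and passed with the GC trend removed (1.02, 0.0215).

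Rac2 divided the FPC-LIPA livers in the direction opposite to Cyba. It had 10.4, 46.2 and 22.7 CPM in livers 31, 33 and 34, and 4.35, 3.45 and 2.72 CPM in livers 36, 37 and 39. The first set reached above the FPC-GFP range of 8.11 to 17.3 CPM and the second lay wholly below it. The log2 fold change over all 6 was 0.35 (SE 0.55, adjusted p = 0.660, edgeR), and its sign turned without FPC-LIPA 33 (-0.43, adjusted p = 0.449) and with limma-voom (-0.25, adjusted p = 0.758). Without livers 36, 37 and 39 it was 1.15 (adjusted p = 0.116). The ribosomal protein share is known here only beside these levels, and its part in them was not tested.

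Nox4 had 18.2, 28.7 and 73.1 CPM in FPC-LIPA. The 73.1 CPM were those of FPC-LIPA 37, and the other 5 livers had 18.2 to 29.6 CPM. The log2 fold change of 0.28 did not pass (SE 0.32, adjusted p = 0.532, edgeR), and its sign turned without FPC-LIPA 37 (-0.15), without FPC-LIPA 36, 37 and 39 (-0.22) and with the GC trend removed (-0.48, adjusted p = 0.0747).

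**Figure D3:**
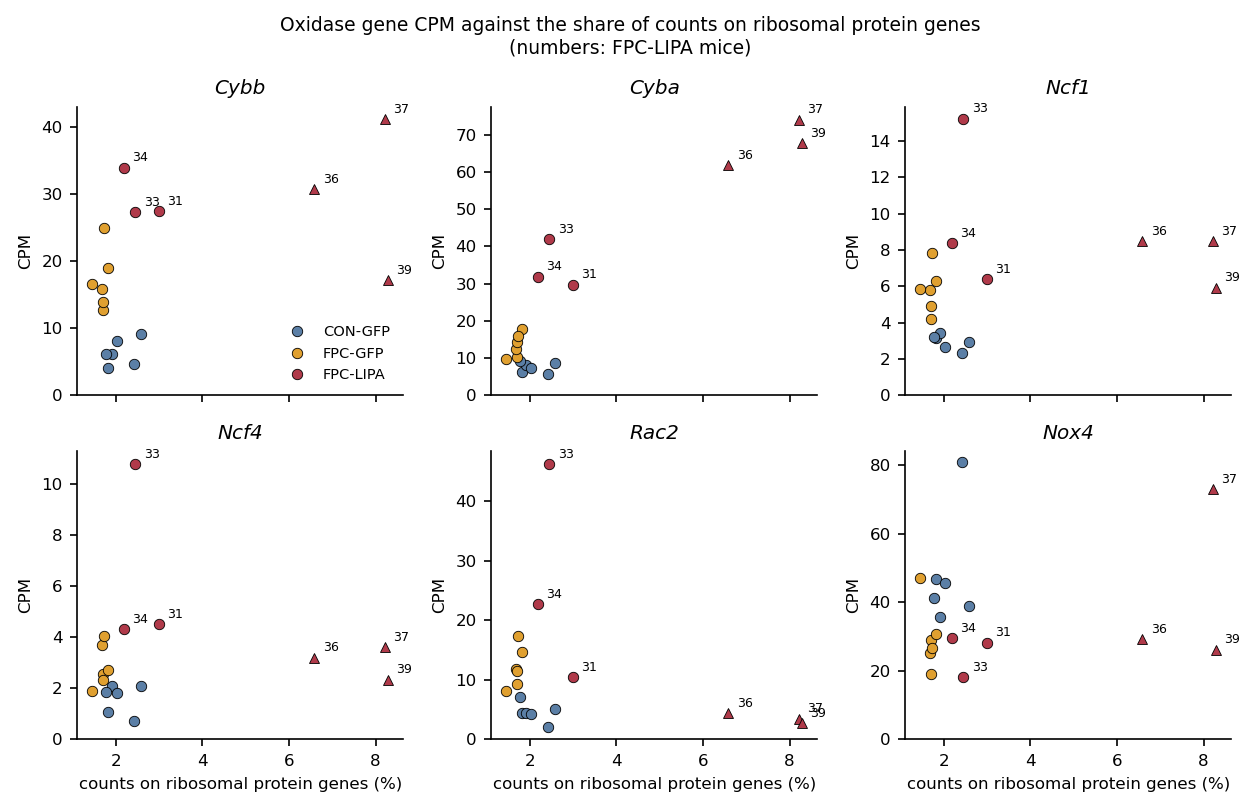
CPM of each of the 6 genes against the percent of counts on 86 genes of cytosolic ribosomal proteins, 1 point per library, coloured by group, with FPC-LIPA mice numbered. The 3 FPC-LIPA libraries at 6.58 to 8.29% have the highest Cyba and, at 2.72 to 4.35 CPM, the lowest Rac2 of the FPC groups.

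The third comparison set FPC-LIPA against CON-GFP, so diet and vector both differed, and it shares all its libraries with the other comparisons. Of the 6 members 5 were DE and higher, where 11.8% of the 14433 genes tested were. By adjusted p alone 5 were higher and none lower, against 14.7% and 8.2% of all genes, and 4 had groups that did not overlap, against 5.58%. The median log2 fold change was 1.69 over the members and 0.04 over all genes tested. Cyba was 7.03-fold higher (log2 fold change 2.81, SE 0.27, adjusted p = 1.8e-05, edgeR) and Cybb 4.77-fold higher (2.25, SE 0.25). For Ncf1 the log2 fold change was 1.62 (SE 0.24, adjusted p = 0.000392), and for Ncf4 it was also 1.62 (SE 0.37, adjusted p = 0.00716). The call for Ncf4 was lost in sheet numbers 55 to 68 (1.40, adjusted p = 0.0532).

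Rac2 passed narrowly in this comparison, at a log2 fold change of 1.76 with an SE of 0.60 (adjusted p = 0.0466, edgeR). The call was lost when any 1 of the 6 CON-GFP libraries was left out (adjusted p from 0.0569 to 0.0869), without FPC-LIPA 33 (0.96, 0.125) or FPC-LIPA 34 (1.62, 0.0709), in sheet numbers 55 to 68 (1.77, 0.127) and with limma-voom (1.13, 0.203). Without FPC-LIPA 36, 37 and 39 it was 2.56 (adjusted p = 0.000887). Nox4 had a log2 fold change of -0.46 that did not pass (SE 0.32, adjusted p = 0.30), and it passed without FPC-LIPA 37 (-0.86, adjusted p = 0.0167), without FPC-LIPA 36, 37 and 39 (-0.91, 0.0302) and with the GC trend removed (-0.88, 0.00198).

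Ratios between genes of the same library show how the members moved against each other and against the leukocytes, and do not depend on the scaling between libraries, apart from a pseudocount of 0.5 CPM. Over 21 such ratios and shares, p-values came from exact two-sided permutation tests, of which the smallest possible for 6 against 6 is 0.00216. The first is the share of Cybb in the exon length-scaled counts of Cybb and Nox4, the catalytic subunits measured here. It was 17.2% ± 6.52 (SD, n = 6) in CON-GFP, 46.3% ± 8.04 (SD, n = 6) in FPC-GFP and 57.4% ± 8.84 (SD, n = 6) in FPC-LIPA. All 6 FPC-GFP livers were above all CON-GFP livers (exact permutation p = 0.00216, the smallest possible, adjusted p = 0.0114), and so were all 6 FPC-LIPA livers (adjusted p = 0.0114, exact permutation). FPC-LIPA and FPC-GFP overlapped (adjusted p = 0.123, exact permutation), with a larger difference of 13.6 percentage points without FPC-LIPA 37 (adjusted p = 0.0398) and 17.1 without FPC-LIPA 36, 37 and 39 (adjusted p = 0.0357).

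The share of Rac2 in the summed Rac1 and Rac2 tells how much of this GTPase pair was of the blood cell form. It was 4.94% ± 1.74 (SD, n = 6) in CON-GFP and 12.1% ± 3.13 (SD, n = 6) in FPC-GFP, with no overlap (exact permutation p = 0.00216, adjusted p = 0.0114). Rac1, the widely expressed form, had means of 125.8 and 126.7 CPM in these groups (log2 fold change 0.02, adjusted p = 0.919, edgeR). In FPC-LIPA the Rac2 share was 13.0% ± 12.5 (SD, n = 6), from 2.49% in liver 37 to 33.9% in liver 33, and its difference from FPC-GFP did not pass the test (adjusted p = 0.881, exact permutation). Without FPC-LIPA 33 the difference from FPC-GFP was -3.27 percentage points, and without FPC-LIPA 36, 37 and 39 it was 10.5 (adjusted p = 0.111).

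Against Ptprc, the CD45 gene carried by all leukocytes, Cybb and Rac2 were the members that rose on the FPC diet. The log2 ratio of Cybb to Ptprc was -0.63, -0.02 and 0.50 in the lowest, median and highest CON-GFP liver and 0.58, 0.94 and 1.12 in FPC-GFP. These ranges did not overlap, and the means differed by 0.90 (exact permutation p = 0.00216, adjusted p = 0.0114). Rac2 to Ptprc differed by 0.87 (adjusted p = 0.0379, exact permutation), with 4 of 6 FPC-GFP livers above all controls, and this call was lost without CON-GFP 2, 6 or 7 or FPC-GFP 11, 12, 13, 16 or 19 (adjusted p from 0.0519 to 0.106). The ratios of Cyba, Ncf1 and Ncf4 differed by 0.30, 0.38 and 0.22 and did not pass (adjusted p = 0.336, 0.246 and 0.482, exact permutation).

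These ratios depended on the gene taken to stand for the leukocytes. Ptprc had a log2 fold change of 0.50 on the diet that did not pass (adjusted p = 0.118, edgeR), while the macrophage receptor gene Csf1r rose by 1.39 (adjusted p = 0.000893). Against Csf1r the diet difference was -0.045 for Cybb and -0.070 for Rac2, and it was -0.64 for Cyba (adjusted p = 0.0325, exact permutation) and -0.72 for Ncf4 (adjusted p = 0.00909). Cyba and Ncf4 thus rose by less than Csf1r did.

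With LIPA the ratio of Cybb to Ptprc was lower than in FPC-GFP by 0.57 on the log2 scale (adjusted p = 0.0364, exact permutation), and Ptprc itself rose by 1.67 (adjusted p = 0.0159, edgeR). FPC-LIPA 37 had 69.2 CPM of Ptprc, and the other FPC-LIPA livers had 13.9 to 22.8 CPM. The log2 fold change of Ptprc was 1.06 to 1.80 with 1 library left out. Without FPC-LIPA 37 the difference in the Cybb ratio was -0.36 (adjusted p = 0.0398, exact permutation). The call for the Cybb ratio was lost without FPC-GFP 11, 13, 16, 19 or 20 (adjusted p from 0.0818 to 0.1) and without FPC-LIPA 36, 37 and 39 (-0.31, 0.111). The differences for Ncf1 (-0.81, adjusted p = 0.0519), Ncf4 (-0.79, 0.157) and Rac2 (-1.69, 0.123) did not pass and passed without FPC-LIPA 33 (-1.01, 0.00909; -1.08, 0.0130; -2.19, 0.0130; exact permutation). Without FPC-LIPA 37 these differences were -0.49 (Ncf1), -0.43 (Ncf4) and -1.12 (Rac2) and did not pass. Cyba to Ptprc was 0.51 higher and did not pass (adjusted p = 0.266). Against Csf1r, which had a log2 fold change of -0.13 with LIPA (adjusted p = 0.808), the difference for Cybb was 1.21 (adjusted p = 0.0606, exact permutation), the opposite sign. Against Csf1r, Cyba (2.29, adjusted p = 0.00909), Ncf1 (0.97, 0.0455) and Ncf4 (0.99, 0.0227) were higher with LIPA by the same exact permutation test, and Rac2 was not (0.089, 0.854). For Ncf1, Ncf4 and Rac2 these signs too are opposite to those against Ptprc. In FPC-LIPA the log2 ratio of Cybb to Csf1r ran from -2.13 to 0.71, a wider span than that of Cybb to Ptprc. Csf1r itself had 47.6 to 122 CPM in FPC-LIPA 31, 33 and 34 and 22.9 to 25.5 CPM in FPC-LIPA 36, 37 and 39. Its range in FPC-GFP was 47.1 to 89.5 CPM. The part of this division of the FPC-LIPA livers in the ratios to Csf1r was not tested.

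**Figure D4:**
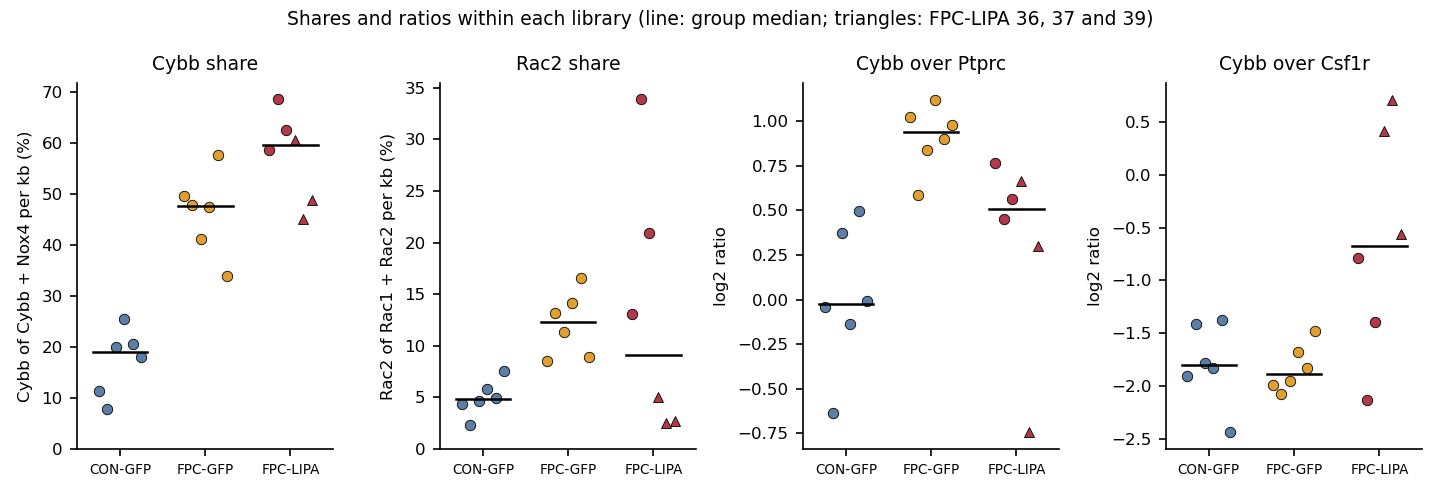
Shares of Cybb in Cybb plus Nox4 and of Rac2 in Rac1 plus Rac2 (percent) and log2 ratios of Cybb to Ptprc and to Csf1r, 1 point per library, with a line at each group median and triangles for FPC-LIPA 36, 37 and 39. The Cybb share separates CON-GFP from both FPC groups, and the Rac2 share in FPC-LIPA spans 2.49 to 33.9%.

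Other genes followed each member across the 18 libraries, given here as Pearson r of log2 CPM and as a description only, since the libraries share groups and scaling. Closest to Cyba were Tyrobp (r = 0.98), an adaptor of activating receptors in myeloid cells, Sparc (0.98), a matrix protein gene, and Gngt2 (0.98). After removal of the group means these values were 0.89, 0.79 and 0.87. Closest to Cybb were Cd5l (0.98), a secreted protein of macrophages, the lysosomal protease gene Ctss (0.97) and Myof (0.97), which kept 0.85, 0.85 and 0.80. Ncf1 was most like Pirb (0.96), an inhibitory myeloid receptor, Was (0.95), an actin regulator of blood cells, and Slc11a1 (0.95), a metal transporter of phagosomes.

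The other members had other partners. Ncf4 was closest to the tyrosine kinase gene Syk (0.97), Vasp (0.96) and the cytokine receptor gene Csf2ra (0.95), with 0.94, 0.93 and 0.90 after removal of group means. Rac2 was closest to the endothelial factor gene Sox18 (0.96) and to Laptm5 (0.96) and Hcls1 (0.96) of blood cells, with 0.95, 0.96 and 0.95 after this removal. Nox4 was closest to Mier3 (0.95), Rbm15 (0.95) and Man1a (0.94), none of which is a leukocyte marker in the lists used here.

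Among relatives of these genes, Nox1, Nox3, Noxa1 and the 4 Duox and Duoxa genes, 7 in all, had a mean under 0.1 CPM over all 18 libraries. Noxa1 averaged 0.147 CPM in FPC-GFP and 0 CPM in the controls, Duoxa1 averaged 0.1 CPM and 0.0256 CPM, and neither passed the filter on low counts. Rac3, another Rac GTPase, was a low gene that did not pass the filter on the diet. With LIPA it was DE, from a mean of 0.298 CPM in FPC-GFP to 0.958 CPM in FPC-LIPA (1.72, SE 0.51, adjusted p = 0.0328, edgeR), and this call was lost in 8 of 12 fits that each left out 1 library, among them FPC-LIPA 33, 37 and 39, with adjusted p up to 0.0751. Without FPC-LIPA 36, 37 and 39 it was 1.85 (adjusted p = 0.122).

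Cybc1, Noxo1 and Rac1 did not pass. Cybc1, which helps the membrane pair to fold, had means of 10.4, 13.2 and 12.7 CPM in CON-GFP, FPC-GFP and FPC-LIPA in turn (log2 fold change 0.34 on the diet, adjusted p = 0.0838, edgeR). Noxo1, the organizer used by other NADPH oxidases, had 1.45, 1.32 and 1.57 CPM, and Rac1 had 125.8, 126.7 and 135.5 CPM (log2 fold change 0.17 with LIPA, adjusted p = 0.523). Rac1, Cybc1 and Noxo1 each share exon sequence with a gene on the other strand (Daglb, Hexdc and Tbl3), and the Rac genes resemble each other in their coding sequence, so that their counts are less certain.

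Of 14 regulators of the complex (exchange factors, kinases, a proton channel), all tested, 8 rose on the diet and none fell, with a median log2 fold change of 0.52 over the list. Of all genes tested 12.9% were higher and 10.9% lower by adjusted p alone. Among them 2 were DE, Pak1 (1.45, SE 0.23, adjusted p = 0.000757, edgeR), a kinase activated by Rac, and Pik3cg (1.27, SE 0.35, adjusted p = 0.0170), the lipid kinase of leukocytes. The Rac exchange factors Vav1 (0.87), Prex1 (1.00), Dock2 (0.98) and Vav2 (0.30, a call lost in 8 of 12 fits with 1 library left out, adjusted p up to 0.0863), the kinase Prkcd (0.85) and the Rac inhibitor Arhgdib (0.53) rose as well. The proton channel Hvcn1, which balances the charge moved by the oxidase, had a log2 fold change of 0.27 and did not pass (adjusted p = 0.565).

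With LIPA 3 of the 14 regulators rose and 1 fell, with a median of 0.25, and of all genes tested 14.4% were higher and 6.87% lower by adjusted p alone. Rap1a, a GTPase found with the membrane pair, was DE (1.35, SE 0.38, adjusted p = 0.0270, edgeR), from a mean of 41.4 to 98.5 CPM, and Prkcb (0.95, adjusted p = 0.0435) and Arhgdib (0.71, adjusted p = 0.0400) rose. Vav2 fell by 0.86 on the log2 scale (adjusted p = 0.0264). Each of these 4 calls was lost in 7 or more of 12 fits that left out 1 library, and without FPC-LIPA 36, 37 and 39 the log2 fold change was 0.26 for Rap1a (adjusted p = 0.373), 1.04 for Prkcb (0.107), 0.98 for Arhgdib (0.0333) and -0.43 for Vav2 (0.117). Against CON-GFP 7 of the 14 were DE and higher in FPC-LIPA, with a median of 1.00, beside 11.8% of all genes tested.

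Of 16 genes of antioxidant defence, not all of which act on superoxide or hydrogen peroxide themselves, 4 rose on the diet and 2 fell. Of all genes tested 12.9% were higher and 10.9% lower, and the median log2 fold change over the list was -0.10. Extracellular superoxide dismutase Sod3 (0.79), heme oxygenase Hmox1 (0.79), thioredoxin reductase Txnrd1 (0.55) and Gpx3 (0.67) rose, and the peroxiredoxins Prdx4 and Prdx5 fell by 0.62 and 0.39. None was DE by edgeR, DESeq2 or limma-voom. The calls of Gpx3 and Prdx5 were lost in 4 and 3 of 12 fits that left out 1 library, with adjusted p up to 0.0661 and 0.0566. With LIPA 5 rose, beside 14.4% of all genes tested, and none fell, beside 6.87%. Gpx4, which reduces lipid peroxides, was DE (1.93, SE 0.39, adjusted p = 0.0124, edgeR), with 0.72 (adjusted p = 0.0651) without FPC-LIPA 36, 37 and 39, and Gpx1, Prdx1, Prdx2 and Prdx4 were called by adjusted p, each lost in 8 or more of the 12 fits. Cat and Gpx1, the most abundant genes of the list, did not pass on the diet (log2 fold changes of -0.15 and -0.30). Against CON-GFP, FPC-LIPA had 3 of the 16 higher and 1 lower by adjusted p, beside 14.7% and 8.2% of all genes tested, and 2 of them were DE.

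**Figure D5:**
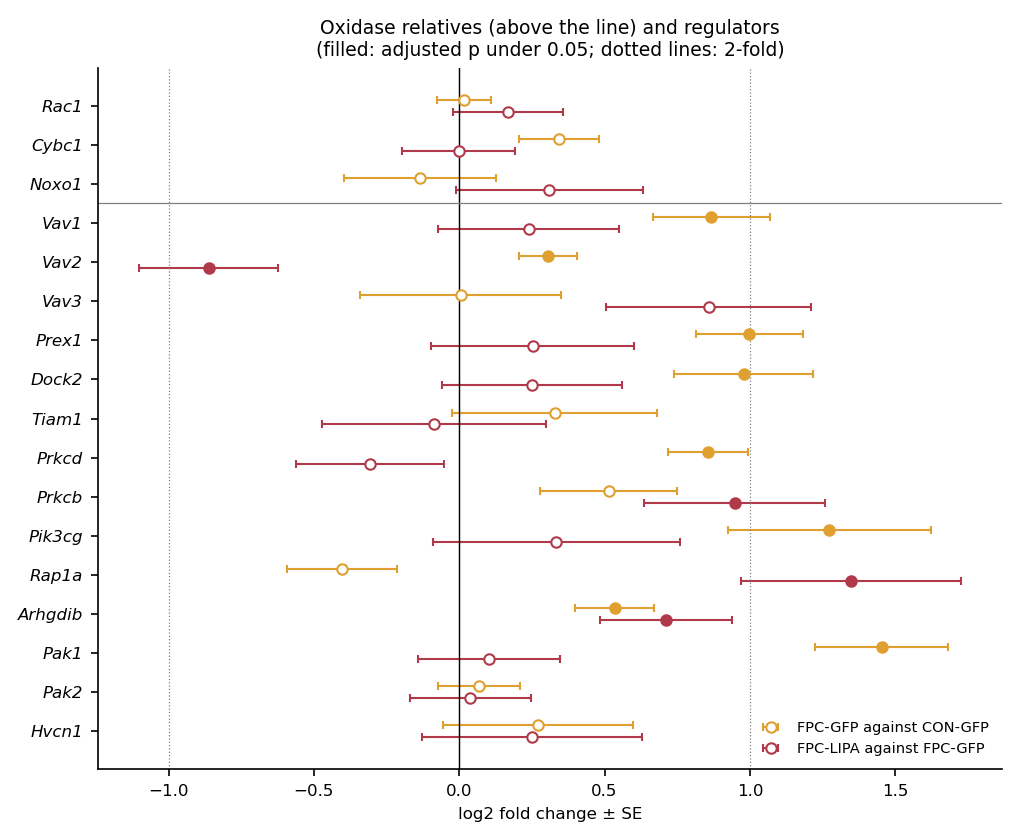
Log2 fold changes of Rac1, Cybc1 and Noxo1 and of the 14 regulators of the complex, with bars of 1 SE from edgeR and filled points for an adjusted p under 0.05, for FPC-GFP against CON-GFP and FPC-LIPA against FPC-GFP. On the diet most regulators lie above 0 with Pak1 highest at 1.45, and with LIPA they spread from Vav2 at -0.86 to Rap1a at 1.35.

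Markers of leukocytes also differed between the groups. Of all genes tested, 4.76% were DE and higher on the diet and 10.3% with LIPA. By adjusted p alone 12.9% were higher and 10.9% lower on the diet, and 14.4% and 6.87% with LIPA. The counts in this paragraph and the next are to be read beside these shares. Of 7 Kupffer cell genes all 7 were DE and higher on the diet, with a summed level of 117 to 250.4, 345 to 614 and 422 to 948 CPM in the 3 groups, control first. Among them Adgre1 rose by 1.56 on the diet (adjusted p = 0.000158, edgeR) and by 1.77 with LIPA (adjusted p = 0.0152). With LIPA its groups overlapped, and FPC-LIPA 37 had 145 CPM beside 23.4 to 66.1 CPM in the other FPC-LIPA livers. This fold change was 1.21 to 1.94 with 1 library left out. With LIPA 1 of the 7 was DE and 3 passed by adjusted p, and 6 had a log2 fold change above 0. The exception was Csf1r (-0.13, adjusted p = 0.808, edgeR). The 8 genes of monocytes and macrophages summed to 38.5 to 89.1, 96.3 to 305 and 402 to 662 CPM in the 3 groups, with 4 of 7 tested DE on the diet and 3 of 8 with LIPA, Lyz2 among both (1.44 and 1.88). Lyz2 alone averaged 50.5, 138 and 481 CPM in these groups. Cd68 (0.12) and Cd14 (0.21) were among those that did not pass with LIPA. The 3 general leukocyte genes (Ptprc, Coro1a and Laptm5) summed to 18.5 to 26.9, 28.5 to 52.8 and 38.8 to 92.8 CPM. The part of cell numbers in the members' changes was not tested.

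Genes of neutrophils, cells rich in this oxidase, were at low levels. The 8 listed summed to 1.97 to 4.44 CPM in CON-GFP, 2.77 to 6.08 in FPC-GFP and 7.24 to 18.7 in FPC-LIPA, and the defining genes Ly6g, Mpo and Retnlg had means under 0.1 CPM over all 18 libraries. None of these 3 passed the filter on low counts, and Retnlg averaged 0.214 CPM with LIPA, beside 0.0310 CPM in FPC-GFP livers and 0.0324 CPM in the controls, in groups that overlapped. Of the 3 listed genes tested none was DE on the diet (edgeR, with 1 at an unadjusted p under 0.05, and none by DESeq2 or limma-voom), and S100a8 (2.90) and S100a9 (2.63) were with LIPA, neither of them DE without FPC-LIPA 36, 37 and 39. Of the stellate cell genes, cells in which Nox4 is also known, 2 of 8 were DE and higher on the diet and 1 of 8 with LIPA. The summed level of this list was 103 to 168, 155 to 195 and 204 to 534 CPM in the 3 groups. It was highest in FPC-LIPA 37, the liver with the highest Nox4 of FPC-LIPA. This was not particular to stellate cell genes, since the same library was also highest for the summed regulators (329 CPM) and neutrophil genes (18.7 CPM). CON-GFP 2, the control with the highest Nox4, had a stellate sum of 126 CPM, inside the control range. The part of stellate cells in the Nox4 levels was not tested. With LIPA only 3 of the 8 stellate cell genes (Col3a1, Rgs5 and Lrat) had a log2 fold change above 0, and the median was -0.16. Col3a1 averaged 46.9 CPM in FPC-GFP and 142 CPM in FPC-LIPA. Of the dendritic, B, T and NK cell lists, 3, 2, 2 and 1 genes were DE with LIPA, and none without FPC-LIPA 36, 37 and 39. On the diet 1 dendritic gene was DE and none of the 3 B cell and 4 T cell genes tested (edgeR, with 0 and 1 at an unadjusted p under 0.05, and none by DESeq2 or limma-voom), and no NK cell gene passed the filter. Of the 5 endothelial genes 2 passed by adjusted p on the diet and none with LIPA (1 at an unadjusted p under 0.05), none was DE in either comparison, and of the 4 cholangiocyte genes none had an unadjusted p under 0.05 in either (none of either list was DE by DESeq2 or limma-voom). Of the 5 hepatocyte genes 2 fell on the diet (Cyp2e1 by 0.65 and Apoh by 0.54) and none passed with LIPA (edgeR, with 1 at an unadjusted p under 0.05, and none DE by DESeq2 or limma-voom). In FPC-LIPA against CON-GFP 2 of the 5 were lower by adjusted p, beside 8.2% of all genes tested, and both were DE.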

How the data were processed

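RNA of 18 mouse livers was sequenced in pairs, with 1 library per mouse, so p-values measure the spread between mice. The authors trimmed reads with Trimmomatic, mapped them with HISAT2 2.1.0 to GRCm38 (mm10) and assigned them to genes with Feature Counts (Subread), and FastQC and edgeR are also named in the submitters' processing notes. The deposited values are these raw counts, with no normalization. The strand setting, the annotation version and the rule for reads that map to several places are not given in the sources used here, and a stranded and an unstranded kit are both named, so counts of overlapping or similar genes are uncertain. Of 23 count columns 18 were matched to mice by condition and number and 5 of other vectors were not used. Total counts ranged from 16632146 to 37739301, and every error is an SD or SE between mice.

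For each comparison, its own 12 libraries were filtered with filterByExpr, scaled by TMM and tested with the quasi-likelihood test of edgeR 4.0.16 (R 4.3.3) with Benjamini-Hochberg adjustment over all genes tested. DE genes changed at least 2-fold with an adjusted p under 0.05. The SE is the log2 fold change divided by the square root of F. This step was tested on simulated data. Ratios used TMM-scaled CPM plus 0.5, and shares used counts per kb of joined exons. Both were tested with exact two-sided permutation tests over 924 splits, adjusted over 21 tests. Likeness used log2 CPM with a prior count of 2 among genes of at least 1 CPM on average. Sequences are from RefSeq, where 4 of 6 members matched.

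The members and gene lists were chosen with earlier results of these data known. Named were all members, the relatives that passed the filter (except one that is not reported here), the 2 most abundant genes and the most changed DE gene of each list per comparison, Ptprc, Csf1r, Adgre1 and the 3 genes most like each member. Other listed genes were named after their values were seen, where a count was of few genes, and Gtf2ird2 for its overlap. To keep to the members, some list genes of that rule were counted and not named.

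The settings also tried were scaling by upper-quartile factors, by DESeq2 size factors or by library size alone, the DESeq2 1.42.0 Wald test, limma-voom (limma 3.58.1), a fit of all 18 libraries, no filter, a filter of 1 CPM in 6 libraries, sheet numbers 55 to 68, removal of length trends, no fold minimum, Csf1r in place of Ptprc, a pseudocount of 0.1, shares from counts not divided by length, and leaving out single libraries. Removal of GC trends, of length and GC trends together, and the fits without FPC-LIPA 36, 37 and 39 were chosen after seeing the data. Tables were made with pandas 2.3.3 and numpy 2.4.6 in Python 3.11.15, and figures with matplotlib 3.10.9.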

Additional observations from a re-analysis of the deposited data

Results flagged for a closer look

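In 39 groups of 6 libraries, the highest or lowest library was compared with the others by Dixon's criterion, by which chance alone marks about 1 in 20 groups, and 5 were marked. FPC-LIPA 33 stood apart for Ncf1, at 15.2 CPM where the other 5 livers were at 5.92 to 8.47 CPM. The same liver stood apart for Ncf4, at 10.8 CPM against 2.33 to 4.50 CPM. CON-GFP 2 stood apart for Nox4, at 81.1 CPM against 35.6 to 46.7 CPM in the other controls. FPC-LIPA 37 stood apart for Nox4, at 73.1 CPM against 18.2 to 29.6 CPM. It also stood apart for the log2 ratio of Cybb to Ptprc, at -0.74 against 0.30 to 0.76.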

How the results depend on the processing

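No paired analysis was possible because the groups share no replicate numbers. The number of DE members on the diet, 2, was 5 with library size alone, 1 with all 18 libraries in one fit and 6 with no fold minimum, and 2 to 3 with 1 library left out. With LIPA it was 1, and 2 with no fold minimum or with GC trends removed, and for FPC-LIPA against CON-GFP it was 5, and 3 in sheet numbers 55 to 68 and 4 to 5 with 1 library left out. Ratios to Ptprc past the test numbered 2 on the diet (0 in sheet numbers 55 to 68, 1 to 2 with 1 left out), 1 with LIPA (3 against Csf1r, 0 in sheet numbers 55 to 68, 0 without FPC-LIPA 36, 37 and 39, 0 to 4 with 1 left out) and 0 for FPC-LIPA against CON-GFP (0 to 1, with Cyba at 1.00 and adjusted p = 0.0398 without FPC-LIPA 37). Shares past the test numbered 2 on the diet (0 in sheet numbers 55 to 68, adjusted p of 0.0556 and 0.0667), 0 with LIPA (1 without FPC-LIPA 36, 37 and 39, 0 to 1 with 1 left out) and 1 for FPC-LIPA against CON-GFP (0 in sheet numbers 55 to 68, 2 without FPC-LIPA 36, 37 and 39). The sheet number sets and the sets without FPC-LIPA 36, 37 and 39 hold fewer libraries and so allow fewer splits. This limits how small their p can be, and a call lost there can come from set size alone.

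These signs turned. With LIPA, Rac2 was -0.43 without FPC-LIPA 33 (-0.43 to 0.57 with 1 library left out) and -0.25 with limma-voom, and Nox4 was -0.15 without FPC-LIPA 37 (-0.15 to 0.47 with 1 left out), -0.48 with GC trends removed, -0.38 with length and GC trends removed and -0.22 without FPC-LIPA 36, 37 and 39. Against Csf1r the diet differences were -0.64 (Cyba), -0.045 (Cybb), -0.56 (Ncf1), -0.72 (Ncf4) and -0.070 (Rac2), those with LIPA 1.21 (Cybb), 0.97 (Ncf1), 0.99 (Ncf4) and 0.089 (Rac2), and those of FPC-LIPA against CON-GFP 0.41 (Ncf1), 0.27 (Ncf4) and 0.019 (Rac2). The Rac2 share with LIPA differed by -3.27 points without FPC-LIPA 33 and -0.67 without FPC-LIPA 34 (-3.27 to 3.01 with 1 left out). Without FPC-LIPA 36, 37 and 39 the ratios to Ptprc of FPC-LIPA against CON-GFP were 0.092 (Ncf4) and 0.66 (Rac2). The cause of these turns was not tested.

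Over all genes, DE genes numbered 1030 on the diet, 1671 with LIPA (116 without FPC-LIPA 36, 37 and 39, 96 in sheet numbers 55 to 68, 856 to 2612 with 1 library left out) and 2176 for FPC-LIPA against CON-GFP (1107 in sheet numbers 55 to 68). With library size alone, the median of all genes moved by 0.196 on the diet, and the DE genes there were 1054 higher and 225 lower in place of 681 and 349. Of all other values recomputed for single genes, lists, ratios, shares and likeness, 2026 stayed the same, 230 lost a call, 14 gained one and 98 moved under settings that leave out no single library. With 1 library left out these numbers were 2068, 264, 7 and 57. For single genes, ratios and shares, the same means the same direction and side of the threshold. For counts of DE genes in lists and for r, it means a value equal or close to the first, and only these could be marked as moved. Depth limits Ncf4 most, with 11 counts in CON-GFP 2.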
